A study of Bos taurus with 47 samples.

Results

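Muscle of grown heifers was compared with muscle of day-84 fetuses, using every library labelled as slaughter and every library labelled as fetal. These were 31 of the 47 bovine libraries of the series, with 15 from slaughter and 16 from fetuses, and the 16 libraries taken at birth served only as a reference point. The animals descend from crossbred Angus heifers, called F0, that gained 0.28 kg per day (LG, low gain) or 0.79 kg per day (MG, moderate gain) over the first 84 days of their gestation and were managed as 1 group afterwards. The slaughter libraries come from F1 heifers, the daughters of those F0 heifers, which were raised alike whatever the treatment, and their Longissimus thoracis muscle gave 8 LG and 7 MG libraries. The protocol text gives 7 LG and 8 MG instead, and the labels of the single libraries were followed. The fetal libraries come from the Longissimus dorsi dissected out of whole F2 fetuses, the next generation, with 8 LG and 8 MG. Age at slaughter and fetal sex are not used here, and the treatment at both stages was given to the F0 dam or granddam and not to the animal sampled. Stage therefore goes together with generation, with the muscle named in the labels and with the table in which the counts were deposited, and these cannot be told apart.

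The Longissimus is the long back muscle of cattle. In a fetus this young, muscle holds dividing myoblasts and thin young myotubes among abundant connective tissue precursors. Grown muscle is filled by long multinucleate fibres packed with contractile filaments and the enzymes that supply them with energy. Fibre number in cattle is largely set before birth, and muscle then grows mainly by enlargement of existing fibres. As the libraries are bulk RNA, fewer cells of a type and less RNA per cell cannot be told apart.

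Each library was sequenced from polyA RNA and summarised by the authors as whole-number counts per gene. Total counts ran from 14972276 to 32547565 at slaughter and from 15526773 to 21916940 in fetuses. Levels are given as CPM, the count of a gene relative to the total of its library, scaled by TMM (a factor per library that sets the bulk of the genes level between libraries) unless library totals are named. None of the 27607 identifiers could be given a gene symbol from the reference table used here, so genes appear as groups by level or size of change, with 4 identifiers described singly, and the labelled tissue was not checked against marker genes. The labels do not state that each library is a separate animal, so the p-values rest on the spread among the libraries as deposited, which may in part be technical.

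Most of the measured transcriptome differed between the stages. Of 14960 genes tested, 12484 (83.4%) passed edgeR's quasi-likelihood test at an adjusted p under 0.05. Of these, 5747 (38.4% of genes tested) were higher at slaughter and 6737 (45%) were lower. The remaining 2476 genes did not pass. The median absolute log2 fold change over all genes tested was 1.37, or 2.58-fold. Tested against a threshold of 2-fold with edgeR's glmTreat, 7816 genes (52.2%) passed, with 3447 higher and 4369 lower at slaughter.

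How the changes split between rises and falls rested on the scaling. TMM factors were 0.646 to 0.832 at slaughter and 1.08 to 1.69 in fetuses, and the ranges did not overlap. With library totals alone, 12505 genes passed, of which 3012 rose and 9493 fell, so that 24.1% of the calls rose against 46.0% with TMM. The median log2 fold change moved by -0.99, from -0.16 to -1.15. All 6737 genes that fell with TMM also fell with library totals, whereas of the 5747 that rose, 3012 rose, 2050 did not pass and 685 fell. Changing the scaling moves all genes by nearly the same amount, so falls and large rises were bound to keep their direction. The agreement that follows describes this shift and is no separate support. All 1022 rises and all 1670 falls of more than 8-fold were called in the same direction, as were 2112 of the 2122 rises and all 2989 falls of more than 4-fold.

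Large changes were frequent in both directions. Among the called genes, 4226 rises and 5060 falls had a fitted change above 2-fold. Above 16-fold there were 512 rises and 989 falls, and above 64-fold 144 rises and 303 falls. These counts use TMM scaling and were not taken with library totals, which move the changes downward. Under TMM, the counts in both directions became alike toward the extreme. There were 25 rises and 32 falls above 512-fold, and 11 rises and 13 falls above 1024-fold. All of those above 512-fold also separated the 2 stages completely, in that every library of 1 stage lay above every library of the other.

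**Figure D1:**
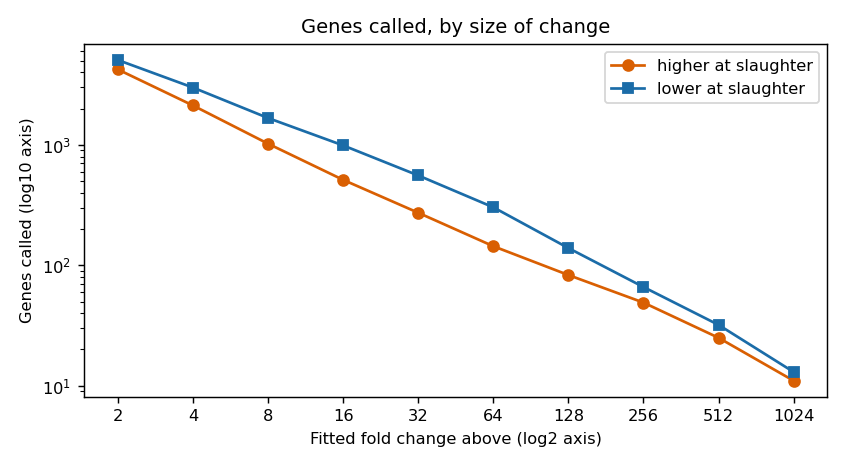
Number of called genes (log10 axis) whose fitted fold change between slaughter and fetus exceeded each value on the horizontal log2 axis. Orange circles are genes higher at slaughter and blue squares are genes lower there. Falls outnumber rises at every size, from 5060 against 4226 above 2-fold to 13 against 11 above 1024-fold, with TMM scaling.

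Complete separation was found for 5354 of the 14960 genes (35.8%). Of these genes, 2375 were higher in all 15 slaughter libraries than in all 16 fetal libraries, and 2979 were lower in all of them. Separation was taken on TMM-scaled CPM and not with library totals, so these counts and their split rest on that scaling. All 5354 were also called by the quasi-likelihood test, and they made up 42.9% of its calls. Among changes above 8-fold, 889 of 1022 rises and 1253 of 1670 falls were separated in this way. Leaving out a library can only add to such a count. It was done here for fetal MG 20 alone, and the separated genes then numbered 3062 higher and 3216 lower.

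**Figure D2:**
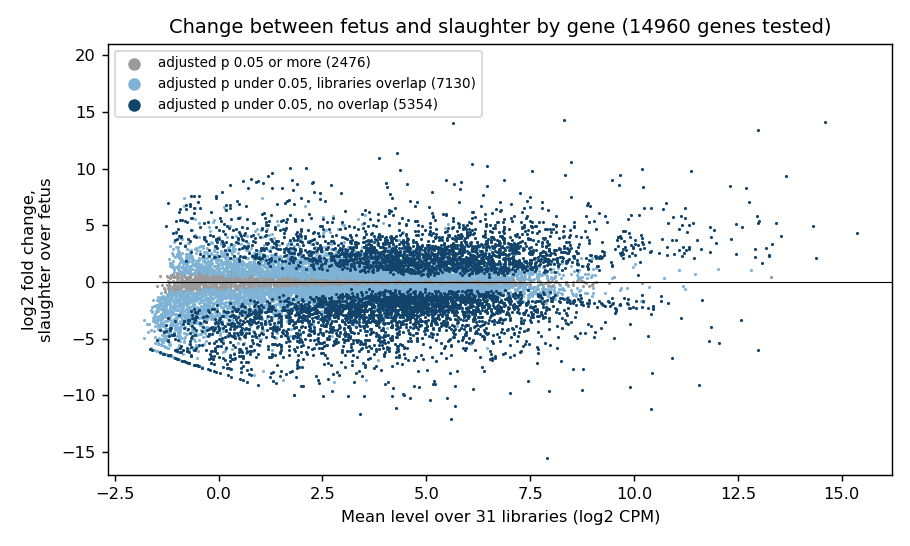
Log2 fold change, slaughter over fetus, of each of the 14960 genes tested against its mean log2 CPM over the 31 libraries. Grey points did not pass at an adjusted p of 0.05 (2476), light blue points passed with overlapping libraries (7130) and dark blue points passed with no overlap (5354). Changes, calls and overlap are with TMM scaling, under which falls are most frequent at the left and rises at the right.

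Rises and falls were not spread alike over the range of expression. Among the 482 most abundant genes, with a mean log2 CPM above 8, 281 (58.3%) rose and 168 (34.9%) fell. Among the 1696 genes with a mean log2 CPM of 0 or less, 335 (19.8%) rose and 955 (56.3%) fell. Between these ends, the share that rose climbed from 33.1% of 2733 genes at 0 to 2 and 39.8% of 3935 genes at 2 to 4, to 40.9% of 4196 genes at 4 to 6 and 49.3% of 1918 genes at 6 to 8. Changes above 8-fold followed the same pattern. There were 123 rises and 38 falls of that size in the most abundant class and 93 rises and 440 falls in the least abundant. These classes use the mean over both stages, which a large change in either direction itself raises, and they are given with no test. Weak genes were also filtered on CPM before TMM scaling. At an equal TMM-scaled level that CPM is higher in fetal libraries, so weak genes entered more easily through fetuses. The shares in the lowest classes may rest on this filter and on the scaling. In the other classes too, the shares use TMM scaling and were not taken with library totals. Over all classes together, 24.1% of the calls rose with library totals and 46.0% with TMM.

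A small set of genes dominated the RNA of grown muscle. It took 57.5 ± 6.41 genes (SD, n = 15) to hold 50% of a library's counts at slaughter and 447 ± 59.8 genes (SD, n = 16) in fetuses. The slaughter libraries ran from 48 to 71 genes and the fetal libraries from 287 to 554, so the ranges did not overlap. The fetal library with the fewest, LG 41 with 287, had more than 4 times as many as the slaughter library with the most.

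The 10 most abundant genes of grown muscle held 23.4% ± 1.30 of the counts at slaughter (SD, n = 15) and 2.72% ± 0.753 in fetuses (SD, n = 16). The same genes held 20.4% ± 2.62 at birth (SD, n = 16). The 10 most abundant genes of fetal muscle held 10.9% ± 1.63 in fetuses, 7.31% ± 0.722 at birth and 4.24% ± 0.534 at slaughter. The 2 sets shared 1 gene. All 10 of the first set rose, while of the second set 7 fell, 2 rose and 1 was not called. A set picked for its level at 1 stage is bound to lean toward that stage, so these directions describe the sets and are no separate support.

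Wider sets were described in the same way. The 100 most abundant genes at slaughter held 56.5% ± 1.33 of the counts there and 11.6% ± 1.58 in fetuses. The 100 most abundant in fetuses held 30.9% ± 1.87 there and 27.1% ± 1.81 at slaughter. These 2 sets shared 24 genes, which count toward the shares of both, and the shares without them were not taken. Of the slaughter set 97 rose, 2 fell and 1 was not called, and of the fetal set 76 fell, 22 rose and 2 were not called. With library totals the slaughter set had 93 rises and 3 falls, and the fetal set 17 rises and 79 falls. Among the 500 most abundant of each stage, 186 were shared.

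Few genes passed wholly from present to absent between the stages. At 1 CPM of the library total or more, 10778 genes were present in every fetal library and 10128 in every slaughter library, with 9013 present in all 31. With TMM-scaled CPM the order was reversed, at 10374 in every fetal library, 10687 in every slaughter library and 9134 in all 31, so which stage had more genes present is set by the scaling. A total of 554 genes were present in every fetal library and below 1 CPM in every slaughter library. The reverse held for 52 genes. With TMM-scaled CPM these 2 classes held 312 and 121 genes. The cut at 1 CPM is a level chosen here, and genes just under it may still be expressed.

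The libraries taken at birth, from F1 heifer calves, gave a further measurement of these genes. Of the 554 genes present in all fetuses and below 1 CPM at slaughter, 413 were already below 1 CPM in all 16 birth libraries, 135 were mixed and 6 were present in all. Of the 52 genes of the opposite kind, 33 were present in all birth libraries, 17 were mixed and 2 were below 1 CPM in all. Generation and muscle label are the same at birth and slaughter and differ from those of the fetuses.

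Complete absence was rarer still. There were 7 genes present in every fetal library with 0 counts in all 15 slaughter libraries. Set against a floor of 3 counts summed over the slaughter libraries, they were at least 178-fold to at least 2666-fold lower at slaughter, with a median bound of 450-fold. All 7 were below 1 CPM at birth, 2 of them with 0 counts. Only 2 genes were present at slaughter with 0 counts in all fetuses, and they were at least 244-fold and at least 7047-fold higher at slaughter. The floors cover counting error only, since the reads carried no molecular identifiers.

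The largest changes are described by 2 identifiers in each direction, those with the largest fitted change among called genes averaging log2 CPM 3 or more over the 31 libraries. What these genes encode is not given in the sources used here. The counting method is not given either, so reads shared with a near-identical copy may be misplaced, and the library kit does not mark strand.

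ENSBTAG00000018204 was one of the main transcripts of grown muscle. It ranged from 33551 to 67957 CPM over the slaughter libraries with a median of 50722, and took 3.62% of all slaughter counts. In fetuses it ranged from 0.0429 CPM in LG 41, a single count, to 23.2 CPM in MG 20, with a median of 0.766. The stages lay far apart, yet the fetal libraries themselves differed widely, and MG 20 with 577 counts stood above the next library, LG 22 with 148. The fitted log2 fold change was 14.12 (SE 0.81, edgeR adjusted p = 6.42e-17), and without fetal MG 20 it was 15.06. It was 16.01 with limma voom and sample weights and 13.01 with library totals alone. The ratio of the summed counts per total was 8460 with a 95% counting interval from 8002 to 8952. Here and for the identifiers below, this interval covers counting error only and not the spread between libraries. Each SE is the fitted change divided by the square root of F from the quasi-likelihood test. These SE values were not estimated separately and are too small where a stage holds few counts. MG 20 alone held 577 of the 1237 fetal counts. At birth it ranged from 976 to 17272 CPM of the library total, between the other stages.

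ENSBTAG00000019554 was all but absent from fetal muscle. It ranged from 445 to 785 CPM at slaughter with a median of 652 (mean 653 ± 93.9, SD, n = 15). The 16 fetal libraries held 11 counts together, in 5 libraries, of which MG 20 had 5. The ratio of the summed counts per total was 12073 with a 95% counting interval from 6748 to 24185. The fitted log2 fold change was 14.28 (SE 0.30, edgeR adjusted p = 5.42e-28), against 14.89 without fetal MG 20 and 13.36 with library totals alone. At birth every library held between 1450 and 4743 counts of it, with a mean of 141 ± 35.4 CPM of the library total (SD, n = 16) against 458 ± 62.0 at slaughter on the same scale.

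ENSBTAG00000002066 showed the opposite pattern and was undetected in the birth libraries too. It ranged from 206 to 878 CPM in fetuses with a median of 449.8 (SD 179, n = 16). Over the 15 slaughter libraries a single count was found, in LG 02, and the 16 birth libraries held 0 counts. The fitted log2 fold change was -15.48 (SE 0.38, edgeR adjusted p = 2.71e-23). It was -16.16 without slaughter LG 02, -14.87 with DESeq2 and -13.43 with limma voom and sample weights. Such a value depends on the small prior count the fit adds, and the ratio of the summed counts per total was 187449 with a 95% counting interval from 33643 to 7403850. The SE does not cover the width of this interval.

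ENSBTAG00000022775 was likewise a transcript of fetal muscle. It ranged from 42.9 to 154 CPM in fetuses with a median of 90.5 (mean 93.2 ± 36.1, SD, n = 16). At slaughter 7 counts were found, all of them in LG 14, and the other libraries held 0. At birth every library held between 1 and 15 counts. The fitted log2 fold change was -12.07 (SE 0.47, edgeR adjusted p = 8.55e-19), and -13.85 without slaughter LG 14. It was -12.70 with library totals alone, -11.12 with limma voom and sample weights, -10.24 in LG libraries alone and -13.93 in MG libraries alone. The ratio of the summed counts per total was 5296 with a 95% counting interval from 2570 to 13173.

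**Figure D3:**
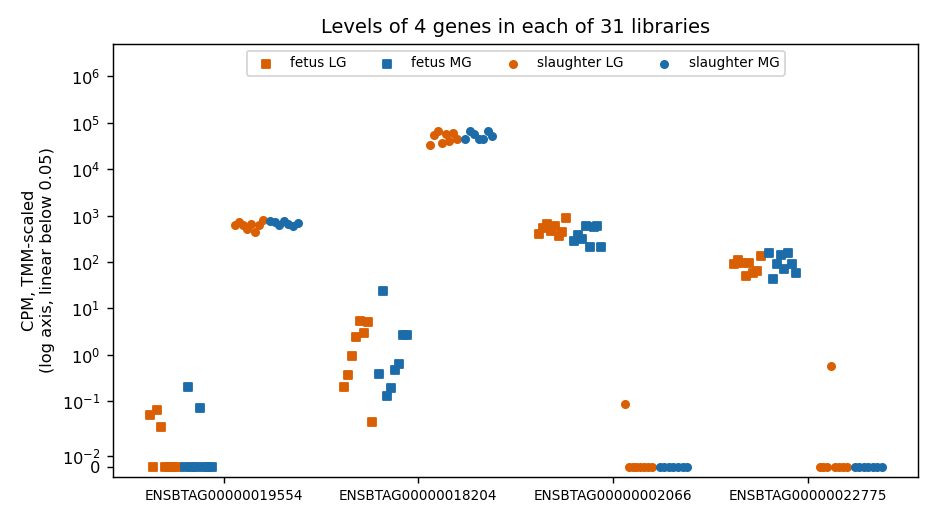
TMM-scaled CPM of 4 genes in each of the 31 libraries, on a log axis that is linear below 0.05 so that values of 0 can be shown. Squares are fetal and circles slaughter libraries, orange is LG and blue is MG. For each gene the stages do not overlap, and single libraries account for the points above 0 at slaughter in the genes on the right.

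On the whole expression profile, the stages lay well apart, and the fetal libraries were spread more widely than the slaughter libraries. Principal components of the log2 CPM values placed 80.4% of the variance on the first axis and 6.98% on the second, and 79.0% of the variance lay between the stage means. Each library was also placed on a straight line from the mean fetus (0%) to the mean slaughter library (100%), leaving the library itself out of the means. Slaughter libraries fell between 95.04% and 104.6% (SD 2.65, n = 15). Fetal libraries fell between -10.9% and 23.4% (SD 9.61, n = 16).

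Fetal MG 20 was the library nearest to grown muscle. It stood at 23.4%, and the next highest fetus, LG 36, at 11.03%. With library totals MG 20 was still the highest fetus, at 13.1%, and the next stood at 5.59%. It was the highest fetus for 400 of the 1022 genes that rose by more than 8-fold (39.1%) and the lowest for 407 of the 1670 that fell by more than 8-fold (24.4%). It was also the highest for 890 of the 2476 genes not called (35.9%) and the lowest for 486 of them (19.6%). Its median log2 difference from the other fetuses was 0.38 over the large rises and -0.45 over the large falls. Whether its age, dissection or RNA differed was not tested. Without it the fetal SD on the axis was 7.68.

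Newborn muscle lay much closer to grown than to fetal muscle on this axis. Placed on the scale of all 47 libraries, the birth libraries stood between 81.2% and 90.7%, with a mean of 85.4% ± 2.48 (SD, n = 16). They overlapped neither the fetal nor the slaughter libraries. The mean was 86.7% ± 2.69 for LG and 84.1% ± 1.53 for MG (SD, n = 8 each), and the ranges of these groups overlapped. Birth and slaughter libraries share generation and muscle label, so these positions do not measure stage alone. The line also leaves out differences particular to birth, and birth positions with library totals were not taken.

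**Figure D4:**
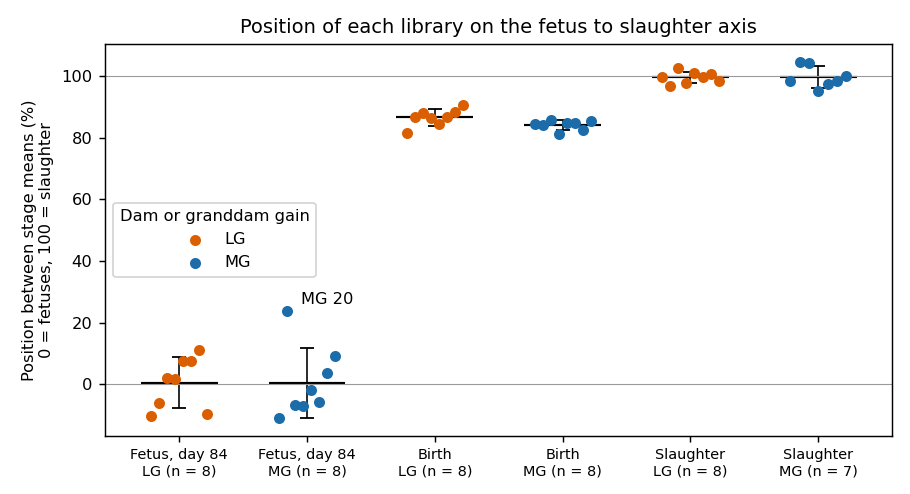
Position of each of the 47 libraries between the mean fetus (0%) and the mean slaughter library (100%), by stage and F0 gain, LG in orange and MG in blue. Points are libraries, horizontal bars are means and error bars are SD. Birth libraries stand at 81.2% to 90.7%, and fetal MG 20 stands apart from the other fetuses, at 23.8% on this scale.

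Fetal libraries were spread more widely around their group means than slaughter libraries, a difference given with no test. The median within-group SD of log2 CPM over all genes tested was 0.50 in fetuses and 0.31 at slaughter, and it was wider in fetuses for 81.7% of genes. Without MG 20 the fetal median was 0.46 and the share 75.8%. Without both MG 20 and LG 41 the median was 0.42. The wider fetal spread was seen for genes that rose by more than 2-fold (0.57 against 0.33), for those that fell by more than 2-fold (0.49 against 0.32) and for those not called (0.54 against 0.36).

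Few genes could be shown to lie close to an equal level. With limma voom and sample weights, the 95% interval of the ratio between the stages lay wholly within 2-fold for 3721 genes (24.9%), of which 2237 were still called as different by the same fit. It lay wholly within 1.5-fold for 1655 genes (11.1%), of which 644 were called. These intervals use TMM scaling, and which genes lie near an equal level rests on it. For the 2476 genes not called, a missed threshold does not show an equal level, since part of them had wide intervals. With library totals, 2071 of these 2476 genes were called as lower at slaughter and 405 were still not called. No gene can be called unchanged in absolute terms from these data, since each level is relative to the other transcripts of its library.

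The change between the stages was also compared between LG and MG descendants, which asks whether F0 gain altered the difference between fetal and grown muscle. No gene of the 14960 (0%) passed for this interaction with edgeR's quasi-likelihood test, whose smallest adjusted p was 1.00. At an unadjusted p under 0.05 there were 282 genes, where a rate of 0.05 would give 748. DESeq2 also called 0 genes, with 289 under an unadjusted 0.05. For limma voom using sample weights the corresponding numbers were 0 and 1937, and for limma voom without them 0 and 146, so the larger number appeared with the weights only among these 4 fits. The 95% interval of the interaction lay wholly within 2-fold for 51.2% of genes with limma voom and sample weights, so for the other genes a difference of 2-fold was not excluded by these libraries. For the 4 identifiers above the adjusted p of the interaction was 1.00.

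Fitted separately, the LG and the MG libraries called largely the same genes. In LG libraries alone, 10690 of 13636 genes (78.4%) were called, 5149 higher and 5541 lower at slaughter. In MG libraries alone, 10173 of 13870 genes (73.3%) were called, 4330 higher and 5843 lower. Of the 13475 genes tested in both, 10575 were called in LG and 9864 in MG. Both called 9416 of them, which was 89.0% of the former and 95.5% of the latter. None of these 9416 had opposite directions. Across these genes, which are not independent replicates, the log2 fold changes had a Pearson correlation of 0.984 and a Spearman correlation of 0.986, given as a description. The median absolute difference between LG and MG was 0.19 on the log2 scale, and 96.6% of genes lay within 1.

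**Figure D5:**
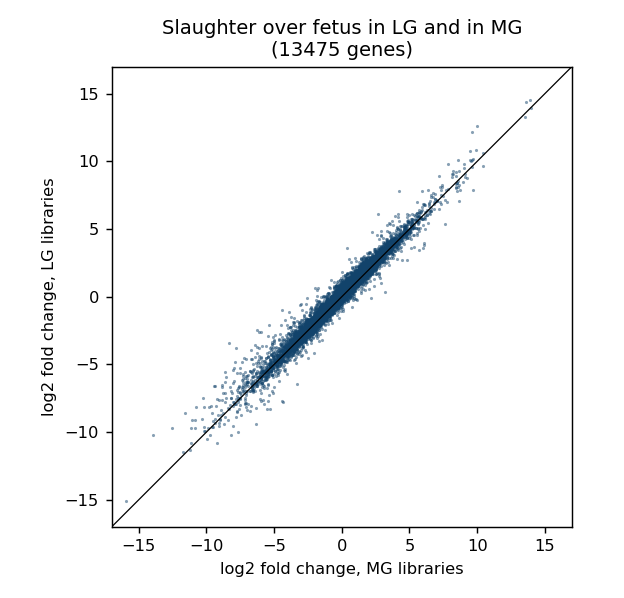
Log2 fold change, slaughter over fetus, in LG libraries (vertical axis) against MG libraries (horizontal axis) for the 13475 genes tested in both. Each point is a gene and the line marks equal change. Points follow the line over the whole range, with a Pearson correlation of 0.984.

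The position of a library on the axis did not separate the treatments. At slaughter the LG mean was 99.6% and the MG mean 99.8% (exact permutation test, two-sided, p = 0.911, adjusted p = 0.992). In fetuses the LG mean was 0.490% and the MG mean 0.554% (exact permutation test, two-sided, p = 0.992, adjusted p = 0.992). Both differences were smaller than the spread between libraries. The fetal MG mean includes MG 20, which stood at 23.4%. The fetal medians were 2.17% for LG and -3.69% for MG. The test was not repeated without MG 20, so the nearly equal fetal means do not show equal positions.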

How the data were processed

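Libraries of polyA RNA did not keep strand and were read as pairs of 150 bp, per the labels' protocols. Counts per gene, as whole numbers, were deposited in 1 table per stage. The submitters' processing notes name STAR 2.7.3a, edgeR 3.24.3, FastQC 0.11.8 and MultiQC 1.9. Genome build, annotation and counting program: not given in the sources used here. Without strand, reads of a gene and of an overlapping antisense gene cannot be separated. The slaughter header has no cell for identifiers, and names were taken to head the values in order. Groups follow the treatment and timepoint labels.

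Counts were analysed in R 4.3.3 with edgeR 4.0.16: filterByExpr, TMM, robust quasi-likelihood fits of 4 groups (stage by treatment), and contrasts of the stage means and of the interaction, with Benjamini-Hochberg adjustment at 0.05. Alternatives used DESeq2 1.42.0, limma 3.58.1 voom, other filters, other scalings and left-out libraries. Steps were tested on simulated data in which few genes changed, so scaling when most genes change was not tested there. Positions used log2(CPM + 0.5) of TMM-scaled CPM over the genes tested. Of 105 library pairs within groups, 0 were identical and the lowest chi-square per degree of freedom was 24.5, so none was merged.

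The comparison, the lists and the rules were chosen with earlier results of these data known. Of 27607 identifiers, 0 matched the reference gene table (RefSeq, ARS-UCD2.0), so the gene lists, cell type markers and isoform pairs were not run, and genes were named by the substitute rule: 2 identifiers per direction, largest change among called genes averaging log2 CPM 3 or more.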

Additional observations from a re-analysis of the deposited data

Results flagged for a closer look

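Single libraries lay far from the rest of their stage in 6 of 32 groups of values examined. Some of these groups are CPM of the identifiers picked for their large change, at the stage where they were nearly absent. There a few counts can set a single library far from the rest. A chance rate of 1 in 20 therefore does not apply, and the number of groups is given as a description. By total counts, slaughter MG 47 had 32.5 M (32547565), above all other slaughter libraries. Fetal LG 41 needed 287 genes to hold 50% of its counts, the fewest of any fetus. Fetal MG 20 had 0.201 CPM of ENSBTAG00000019554, which rests on 5 counts, and 23.2 CPM of ENSBTAG00000018204, which rests on 577. Slaughter LG 02 had 0.0860 CPM of ENSBTAG00000002066, a single count. Slaughter LG 14 had 0.566 CPM of ENSBTAG00000022775, from 7 counts, with 0 in the other slaughter libraries.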

How the results depend on the processing

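With library totals alone, an alternative added after seeing the data, 3012 genes rose; beyond 2-fold 1601 rose and 7133 fell, against 3447 and 4369 with TMM. Under the other alternatives the numbers of rises and of falls stayed within 1.5 times those reported. Called genes numbered 15229 of 22673 with no filter, 10233 of 11893 with a stricter filter (1 CPM or more in all libraries of either stage), 12503 with DESeq2 size factors, 12614 with DESeq2, 13184 with limma voom and sample weights, 12539 without weights, 12884 in 1 model over 47 libraries and 12765 without fetal MG 20 and LG 41. Leaving out each of the 31 libraries in turn gave 12359 to 12717 called genes, 5673 to 6041 rises and 6660 to 6833 falls. The 4 identifiers kept their direction and their call in every alternative that was run. For the interaction, 0 genes passed in every alternative run; at an unadjusted p under 0.05 there were 822 with no filter, 153 with the stricter filter, 155 with the replicate block, 146 with limma voom without weights, 1937 with them, 594 without fetal MG 20 and LG 41, 465 without fetal MG 20 and 231 to 465 over the left-out libraries. Fetal MG 20 stood at 23.8% with 2 CPM added before the log and at 23.9% with the stricter filter.

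The 15 library numbers found at both stages carry the same treatment label at each, and are not stated to mark a shared animal or family. Deviations of same-numbered libraries correlated between -0.38 and 0.38, above 0.1 in 7 of 15 pairs, and 1 library correlated best with its own number. With the number as a replicate block, 12447 genes were called, against 12399 in the same libraries without it. The alternatives for isoform partner ratios were not run, as no identifier had a symbol. Genes near 0 counts at 1 stage have fitted changes that depend on the prior count.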
